A study of Caenorhabditis elegans with 40 samples.

Results

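P granules are RNA and protein condensates that sit in the germ cells of C. elegans, and 10 genes for their components were followed here: pgl-1, pgl-3, glh-1, glh-2, glh-4, deps-1, meg-1, meg-2, meg-3 and meg-4. They were chosen by name out of the 41560 genes in the deposited tables, with no measured value in the rule. Earlier results of these data were known when they were chosen. The study had reported P granule organization as the only process enriched among the genes that rose most with warmth in young wild type. Counts of members called for warm growth are therefore not independent of that report. RNA was sequenced from whole animals in 40 libraries, 5 for each of 8 groups set by genotype (wild-type N2 or the deletion mutant npr-8(ok1439)), adult age and growth temperature (20°C or 25°C). The labels call the young animals 0-day-old and the study's methods call them 1-day-old adults, and the old animals were 9-day-old in both. All animals fed on E. coli OP50 and were kept at their temperature for at least 2 generations, and old animals were separated from their progeny by daily washing and a cell strainer. NPR-8 is a neuropeptide receptor-like protein of sensory neurons, and the study asked how its loss alters the response to warm temperature.

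In the adult germline, P granules cling to the outside of the nuclear envelope, where they receive newly exported RNA and hold small RNA machinery. The scaffold proteins PGL-1 and PGL-3 condense into the granule, and the Vasa-like DEAD-box RNA helicases GLH-1, GLH-2 and GLH-4 anchor it at nuclear pores. DEPS-1 promotes the assembly of the granule. MEG-1, MEG-2, MEG-3 and MEG-4 are disordered proteins that act after fertilization: MEG-3 and MEG-4 coat the granules of the zygote and let them dissolve at the anterior and persist at the posterior, so that the germ lineage inherits them, and MEG-1 and MEG-2 act in the germline blastomeres. Their mRNAs are made in the mother and loaded into the oocyte. The contrast drawn here is between the pgl and glh genes, used throughout the germline, and the meg genes of the embryo.

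All 10 genes were found. Of these, meg-3 is listed under its other name gei-12 and meg-4 under its sequence name C36C9.1. In the ce10 build the 4 meg genes lie on chromosome X: meg-1 at chrX:13927401-13929545 and meg-2 at chrX:13923004-13926040 are neighbours on the minus strand with 1360 bases between them, meg-3 is at chrX:1986647-1989599 and meg-4 at chrX:1682951-1686203, 300443 bases apart. The others lie on autosomes, pgl-1 at chrIV:6974606-6977307, pgl-3 at chrV:4755996-4758405, deps-1 at chrI:506480-508879, glh-2 at chrI:6514022-6517308 and glh-4 at chrI:3727115-3730940. The interval given for glh-1, chrI:6554902-6936826, is 381925 bases long and overlaps other genes, but its fragments equal those of its own transcript. How fragments shared by similar stretches of glh-1 and glh-2, or of meg-3 and meg-4, were split is not given in the sources used here, so values of each pair carry that uncertainty.

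The libraries held 18690583 to 36883662 fragments on genes. Nothing in the labels says that the 5 libraries of a group came from separate cultures, so p-values measure the spread between these libraries, which may be technical. Fragments of npr-8 itself were as frequent in the libraries labelled npr-8 as in wild type (group means of 1.62 to 2.77 CPM over the 7 groups with gene counts, since old npr-8 animals at 20°C had values per transcript only). They cover the whole gene and not only the deleted part, so they do not check the genotype. In young npr-8 animals at 25°C, the library numbered 0 in the deposited table stood apart from its group. Its log2 levels correlated at 0.9899 with the mean of the rest of its group, against 0.9955 or more in the other 34 libraries with gene counts, and member values that rest on it are followed by those without it. Since whole animals were sequenced, fewer germ cells or embryos and less RNA per cell cannot be told apart. Molting and cuticle genes summed to 1356 to 2102 CPM in young wild type at 20°C and to 158 to 175 at 25°C. Stage at harvest was not recorded apart from temperature, age and genotype. Effects named for these 3 and differences of stage therefore cannot be told apart.

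Levels across groups are given as CPM, counts of fragments scaled to a common library total and by TMM (a trimmed mean of log ratios) over the 40 libraries. pgl-1 was the steadiest of the 10 genes, with group means that ran from 631.0 ± 40.3 CPM (SD, n = 5) in old npr-8 animals at 25°C to 807.9 ± 29.3 in young wild-type animals at 25°C. Each group's range overlapped that of the next in the order, and the highest group mean was 1.28 times the lowest. pgl-3 was lowest in young animals at 20°C, at 152 ± 15.7 CPM in wild type and 178 ± 12.7 in npr-8, and highest in young wild type at 25°C, at 337 ± 15.3. These 5 highest libraries, 320 to 359.6 CPM, lay above all others, while the 4 old groups sat close together at 248 to 280.2 CPM.

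The helicase genes split. glh-1 had its highest level in young animals, 998 ± 78.1 CPM in wild type at 20°C, 949 ± 49.1 in wild type at 25°C and 932 ± 22.4 in npr-8 at 20°C, and these groups overlapped. The fourth young group, npr-8 at 25°C, held 714 ± 218 CPM, or 810.3 ± 34.7 (n = 4) without the library numbered 0, below the 868 of old npr-8 at 20°C. glh-1 was lowest in old wild type, at 574 ± 23.3 CPM at 20°C and 593 ± 4.63 at 25°C. glh-2 was lowest in young wild type at 20°C (128 ± 11.4 CPM), next in young npr-8 at 20°C (182 ± 18.3), with no overlap between them, and reached 385 ± 16.3 CPM in young wild type at 25°C and 342 to 404.5 in the old groups. Young npr-8 animals at 25°C held 266 ± 69.6 CPM, or 297 ± 13.0 (n = 4) without the library numbered 0. glh-4 was highest in old npr-8 animals, at 425 ± 9.65 CPM at 20°C and 389 ± 25.6 at 25°C, and lowest in young wild type at 20°C (194 ± 14.97). deps-1 was lowest in young animals at 20°C, with 108 ± 13.96 CPM (wild type) and 105 ± 6.47 (npr-8). It held 187 ± 66.4 CPM in young npr-8 (217 ± 5.10, n = 4, without the library numbered 0) and 283 ± 11.96 in young wild type at 25°C, and 249 to 299.6 in the old groups.

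The meg genes covered a far wider range than any of these. The highest group mean was 78.5 times the lowest for meg-1, 77.3 times for meg-2, 56.9 times for meg-4 and 37.4 times for meg-3, against at most 3.17 times (glh-2) among the pgl and glh genes. For all 4, young wild type at 20°C was lowest and young npr-8 at 20°C next, with no overlap between them or with the group above. The highest mean was in old wild type at 25°C, with 234 ± 8.78 CPM for meg-1, 65.9 ± 2.55 for meg-2, 140.2 ± 5.80 for meg-3 and 78.9 ± 2.45 for meg-4. Among the 6 groups above the young animals at 20°C, most neighbours in the order overlapped.

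**Figure D1:**
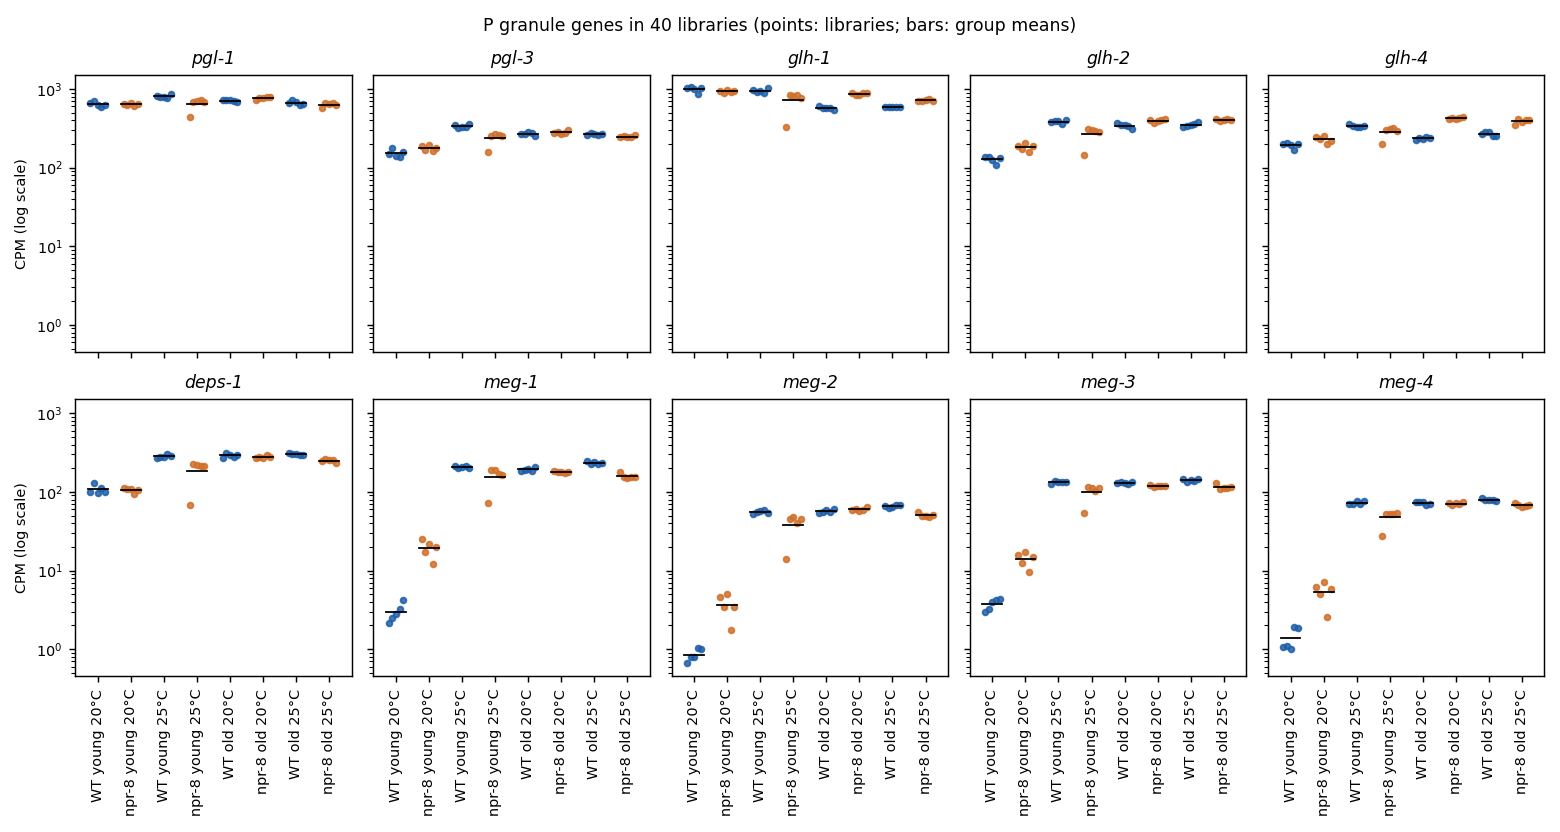
Level of each of the 10 genes in CPM (log axis) in every library of the 8 groups, blue for wild type and orange for npr-8, with group means as bars. The meg genes dropped to 0.659 to 4.30 CPM in young wild type at 20°C while pgl-1 stayed between 590.4 and 694 CPM there, and 1 library of young npr-8 animals at 25°C lay below its group for all 10 genes.

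Per length, in FPKM of the table that holds wild type at 20°C, the order of the genes changed with age. In young animals glh-1 (370.3 ± 25.5 FPKM, SD, n = 5) stood above pgl-1 (316 ± 23.9), pgl-3 (83.2 ± 10.7) and deps-1 (63.0 ± 9.42), and the meg genes held 0.333 ± 0.0561 (meg-2) to 1.56 ± 0.420 (meg-1). In old animals pgl-1 led with 428 ± 13.6, glh-1 held 259.7 ± 7.38, and meg-1, at 126 ± 7.01, overlapped glh-2, at 130.4 ± 6.31, and lay above glh-4, at 84.4 ± 3.81. An embryonic gene that lay far below all 3 helicases in young animals at 20°C was thus within their range per length in old animals. For old npr-8 animals at 20°C the authors' pooled FPKM were 436 for pgl-1, 407 for glh-1, 114 for meg-1 and 29.3 for meg-2.

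The contrast of both gene sets can be read inside each library, where scaling cancels. In young wild type at 20°C the fragments of the 4 meg genes came to 0.316%, 0.336%, 0.410%, 0.555% and 0.526% of those of the 5 pgl and glh genes. In young npr-8 animals at 20°C the share was 1.27% to 2.32%, with a median of 2.05%, so the groups did not overlap. In the other 6 groups it ran from 13.0% to 25.7%. Within these, the 10 old wild-type libraries had the highest shares, 20.1% to 23.4% at 20°C and 22.5% to 25.7% at 25°C, and old npr-8 libraries had 15.3% to 16.3% at 20°C and 15.4% to 19.3% at 25°C. With FPKM in place of fragments the shares were 0.326% to 0.546% in young wild type and 1.41% to 2.58% in young npr-8 at 20°C. At 25°C, 1 library of young wild type and 1 of young npr-8 had FPKM far from their fragments (pgl and glh sums of 173 against 1207 to 1347 in the other wild-type libraries) and FPKM shares of 26.4% and 25.5%, which their fragments did not show.

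**Figure D2:**
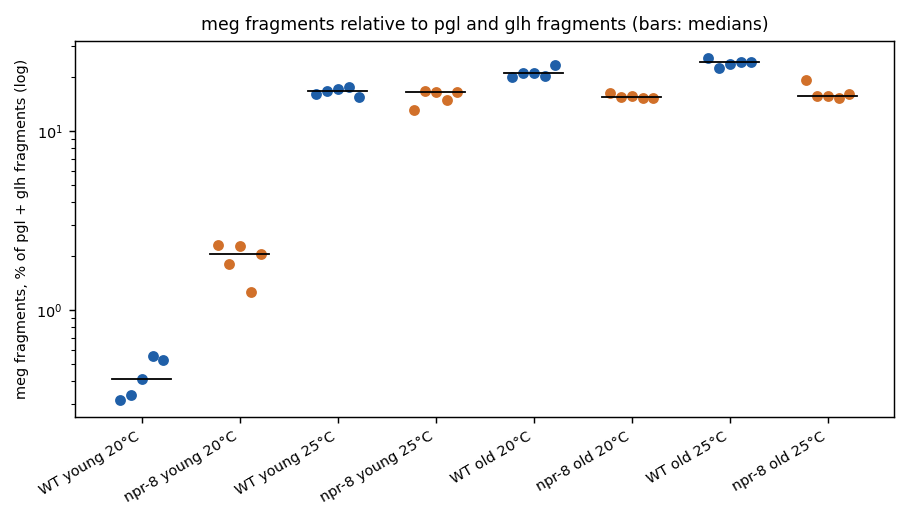
Fragments of the 4 meg genes as a percent of the fragments of the 5 pgl and glh genes (log axis) in every library, blue for wild type and orange for npr-8, with group medians as bars. The medians were 0.410% and 2.05% in young animals at 20°C, wild type and npr-8, and 15.6% to 24.4% in the other 6 groups.

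Growth at 25°C against 20°C in young wild type was compared with edgeR's quasi-likelihood test. Genes were called where the adjusted p was below 0.05 and the log2 fold change was 1 or more, up or down. All 4 meg genes and pgl-3, glh-2 and deps-1 were called higher, 7 of the 10, where 21.4% of all tested genes were called higher. This count is not an independent test, since the study's own report on P granules came from the same libraries. meg-1 had 2.14, 2.49, 2.79, 3.26 and 4.21 CPM at 20°C and 211, 203, 209.7, 213 and 199 at 25°C. Its log2 fold change was 6.30 ± 0.13 (SE; adjusted p = 1.58e-13), or 78.6-fold. meg-2 had 0.659, 0.785, 0.797, 1.02 and 0.999 CPM at 20°C, which is 16 to 27 fragments a library, and 52.3, 55.1, 56.8, 58.9 and 54.7 at 25°C, a log2 fold change of 6.19 ± 0.10. The libraries of the 2 temperatures lie far apart for both neighbours on chromosome X. meg-4 rose by 5.89 ± 0.15 and meg-3 by 5.33 ± 0.09 on the log2 scale, and only 1.72% to 2.31% of tested genes had a larger log2 fold change than any given meg gene.

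Among the adult germline genes the response was graded. glh-2 had 135.4, 134.9, 124, 109 and 134.3 CPM at 20°C and 379, 391, 389, 362 and 406 at 25°C, and its log2 fold change was 1.77 ± 0.06 (adjusted p = 6.17e-12). deps-1 rose by 1.57 ± 0.07 and pgl-3 by 1.32 ± 0.06. glh-4 was at 0.98 ± 0.06 (adjusted p = 7.02e-10), just under the fold limit, and was called with DESeq2 (1.09) and without either of 2 libraries at 25°C, those numbered 2 and 3 (both 1.01). pgl-1 was higher by 0.51 ± 0.05 (adjusted p = 4.23e-07), under the fold limit. glh-1 was at 0.11 ± 0.06 (adjusted p = 0.131), and its sign turned with the scaling: it was -0.06 by library size alone and 0.21 with RLE size factors, and its CPM means were 949 at 25°C and 998 at 20°C. The median log2 fold change was 0.98 over the pgl and glh genes and 6.04 over the meg genes, beside -0.14 over all tested genes. The scaling inside this comparison sets log2 fold changes 0.18 above those read from the CPM levels, and in the comparison of ages at 20°C 0.23 above.

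Age gave nearly the same picture at 20°C. In old against young wild type 7 of 10 genes were called higher (26.7% of all tested genes): meg-2 by 6.28 ± 0.10, meg-1 by 6.24 ± 0.14, meg-4 by 5.93 ± 0.15 and meg-3 by 5.34 ± 0.09 on the log2 scale, then deps-1 by 1.67 ± 0.08, glh-2 by 1.65 ± 0.07 and pgl-3 by 1.05 ± 0.06. This comparison shares its young libraries with the one of temperature. glh-4 (0.51 ± 0.06) and pgl-1 (0.38 ± 0.05) were higher under the fold limit. glh-1, the helicase that anchors granules at the nuclear envelope, was the one member with a negative value, -0.57 ± 0.06 (adjusted p = 5.29e-07): its libraries held 1022, 1055, 1008, 862 and 1042 CPM in young animals and 602, 577, 579, 572 and 538 in old ones, with no overlap.

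At 25°C the ages differed little. edgeR called 0 of the 10 genes in old against young wild type, where 24.5% of all tested genes were called in either direction, and DESeq2 also called 0. In edgeR all 10 had an unadjusted p under 0.05, as did 10822 of 13848 tested genes. The meg genes were higher by 0.09 ± 0.04 (meg-3) to 0.27 ± 0.04 (meg-2) on the log2 scale. glh-1 was lower by a log2 fold change of -0.65 ± 0.04 (adjusted p = 8.44e-11), with 977, 922, 931, 895 and 1019 CPM in young and 585, 595, 596, 593.5 and 597 in old libraries. The difference between the age effects at both temperatures was tested as an interaction over the 20 wild-type libraries. It was called lower for 7 of 10 genes, against 21.9% of all tested genes: the meg genes at -5.21 ± 0.08 (meg-3) to -6.01 ± 0.11 (meg-1), glh-2 at -1.73 ± 0.08, deps-1 at -1.52 ± 0.09 and pgl-3 at -1.34 ± 0.08. The interaction uses the same young libraries as the comparisons above, so this count is not independent of them or of the study's report on P granules. For glh-1 it was -0.05 ± 0.07 (adjusted p = 0.525), with a 95% interval of -0.19 to 0.09, and 0.00014 without library 3 of young animals at 20°C.

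In old wild type, temperature moved the members by little. edgeR and DESeq2 called 0 of 10 between 25°C and 20°C, where 6.21% of all tested genes were called. In edgeR 6 members had an unadjusted p under 0.05, as did 7727 of 13689 tested genes. The values ran from -0.09 ± 0.04 for pgl-1 to 0.27 ± 0.04 for meg-1 on the log2 scale. glh-1 held 538 to 602 CPM at 20°C and 585 to 597 at 25°C, ranges that overlap.

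**Figure D3:**
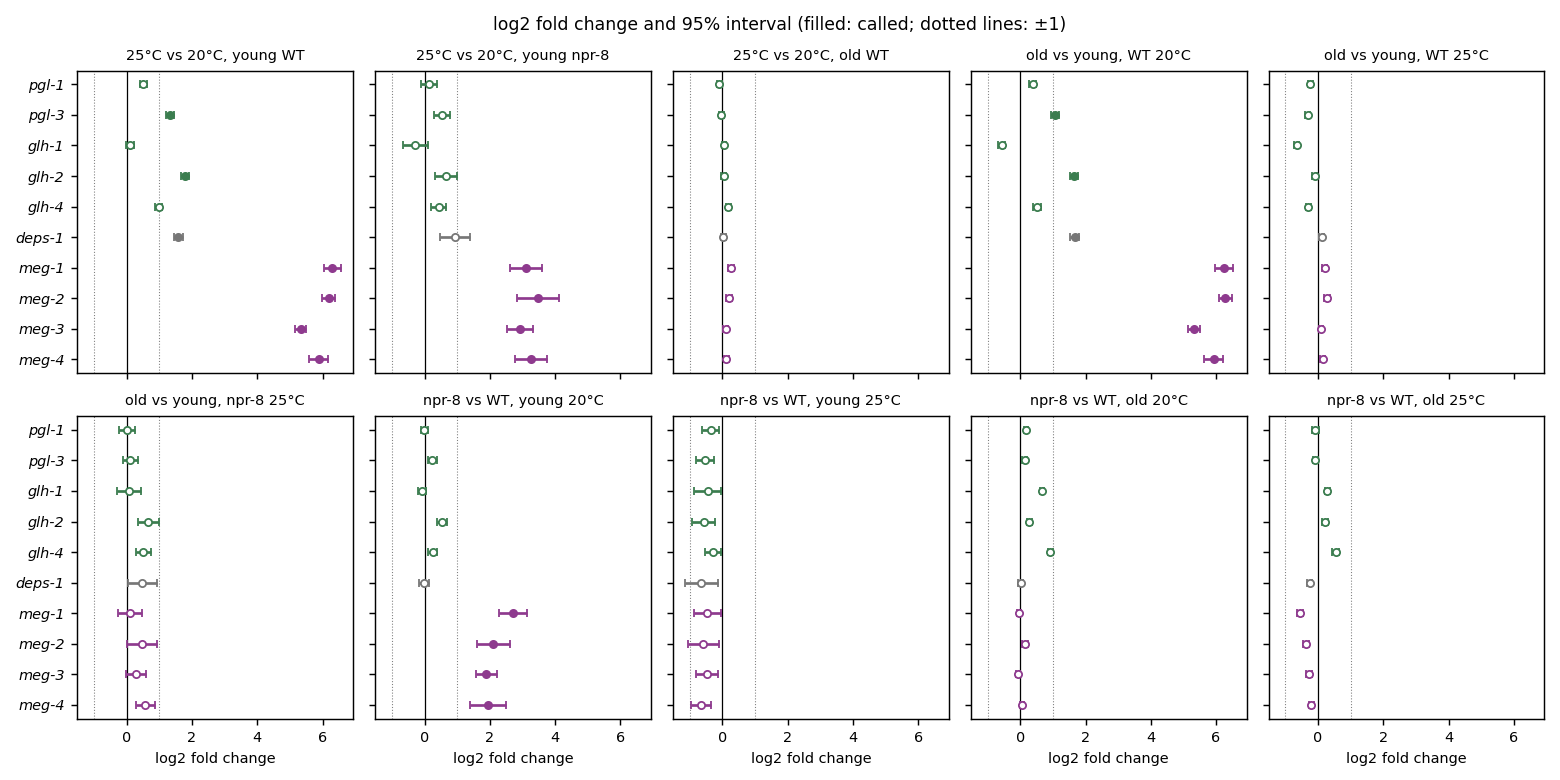
log2 fold change (x axis) of each gene in the 10 comparisons of groups, with 95% intervals from edgeR, filled where the gene was called, green for pgl and glh genes, grey for deps-1 and purple for meg genes. The meg genes stand near 6 in young wild type at 25°C and in old wild type at 20°C, at 1.89 to 2.70 in young npr-8 animals at 20°C, and within 0.66 of 0 between genotypes in the other 3 settings.

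Loss of npr-8 was compared in each age and temperature. In young animals at 20°C the 4 meg genes were called higher in npr-8 and no other member was, 4 of 10 against 4.42% of all tested genes called higher. meg-1 had 24.9, 17.3, 21.7, 12.1 and 20.2 CPM in npr-8, all above the highest wild-type library at 4.21, and its log2 fold change was 2.70 ± 0.22 (adjusted p = 1.01e-05), or 6.50-fold. meg-2, the least abundant, had 4.59, 3.43, 4.98, 1.77 and 3.47 CPM in npr-8 and rose by 2.10 ± 0.26. No library of npr-8 overlapped wild type for either gene. meg-4 (2.59 to 7.22 CPM) rose by 1.95 ± 0.28 and meg-3 (9.51 to 17.4 CPM) by 1.89 ± 0.16. The same npr-8 library, numbered 3, was lowest for all 4 genes. That library also had the lowest sum of oocyte and eggshell genes (1207 CPM against 1573 to 2068 in the rest of its group) and the highest sum of molting and cuticle genes (4542 against 2042 to 3118). Of 10 molting and cuticle genes, 5 were called higher in npr-8, with a median of 1.19, and the part of these markers in the meg values was not tested. The npr-8 levels remained at 6.57% (meg-2) to 10.4% (meg-3) of those of young wild type at 25°C. Among the others, glh-2 was higher by 0.52 ± 0.08 (adjusted p = 0.000348), glh-4 by 0.25 ± 0.07 and pgl-3 by 0.24 ± 0.07, all under the fold limit, while pgl-1 (-0.01 ± 0.05), deps-1 (-0.02 ± 0.08) and glh-1 (-0.09 ± 0.06) had adjusted p-values of 0.922, 0.866 and 0.277.

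In young animals at 25°C all 10 members had lower values in npr-8, from -0.29 ± 0.12 (glh-4) to -0.66 ± 0.16 (meg-4) on the log2 scale. edgeR and DESeq2 called 0 of 10, where 17.3% of all tested genes were called. In edgeR 9 members had an unadjusted p under 0.05, as did 9057 of 13954 tested genes. The library numbered 0 lay below the other 4 of its group for every member, at 31.6% of their mean for deps-1, 31.7% for meg-2, 40.5% for glh-1 and 65.9% for glh-4. It also had less of the summed oocyte and eggshell genes (3822 CPM against 7489 to 7956), of muscle genes (3533 against 6547 to 9258) and of intestine genes (2147 against 3979 to 4598), and more of the zygotic embryonic genes (172 against 111 to 116). The part of these in its low member levels was not tested. Without it, the values ran from -0.21 (glh-4, adjusted p = 0.000283) to -0.53 (meg-4, adjusted p = 2.66e-08), all 10 with an adjusted p under 0.05 and none past the fold limit. Over all genes 2387 were called without it. How many of all genes had an adjusted p under 0.05 was not counted, so 10 of 10 is no result about the members. In the same comparison 12 of 13 sperm genes tested were called higher (median 1.38) and 4 of 9 zygotic embryonic genes lower (median -0.83). Between the 2 wild-type groups at 25°C 9 sperm genes passed the filter, and between the 2 young npr-8 groups 5 zygotic genes did. The others were tested through the group where they were high, so the filter largely set their direction. Over all 13954 tested genes, 2015 were called higher and 396 lower. The part of these markers in the member values was not tested. The genotype effect on the meg genes thus had opposite signs at the 2 temperatures, though none was called at 25°C. With all libraries the adjusted p at 25°C was 0.0718 (meg-1), 0.0575 (meg-2), 0.0271 (meg-3) and 0.00397 (meg-4) in edgeR. The interaction was called lower for meg-1 (-3.20 ± 0.30), meg-2 (-2.73 ± 0.38), meg-4 (-2.64 ± 0.30), meg-3 (-2.41 ± 0.23) and glh-2 (-1.13 ± 0.19), 5 of 10 against 5.51% of all tested genes. It contains the difference of temperature in young wild type, so this count is not independent of that comparison. Without the library numbered 0 the meg values of the interaction were -2.27 to -3.03, and glh-2, at -0.99, was no longer past the fold limit.

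In old animals the largest positive values between genotypes were those of helicases. At 20°C glh-4 had 222, 240.5, 234, 243 and 239 CPM in wild type and 416, 431, 418, 421 and 439 in npr-8, a log2 fold change of 0.93 ± 0.03 (adjusted p = 1.90e-15). glh-1 was higher by 0.67 ± 0.03 (842 to 886 CPM in npr-8 against 538 to 602), and glh-2 by 0.28 ± 0.04. None reached the fold limit, so edgeR called 0 of 10, as did DESeq2, where 15.5% of all tested genes were called. In edgeR 6 members had an unadjusted p under 0.05, as did 9420 of 12857 tested genes. The meg genes were at -0.06 ± 0.03 (meg-3) to 0.14 ± 0.04 (meg-2). At 25°C the order of the helicases was the same, with glh-4 at 0.54 ± 0.05, glh-1 at 0.28 ± 0.04 and glh-2 at 0.21 ± 0.04, while meg-1 was lower by -0.55 ± 0.05 (adjusted p = 8.16e-08), with 224 to 247 CPM in wild type and 150.5 to 179 in npr-8. meg-2 (-0.38 ± 0.05), meg-3 (-0.27 ± 0.05), deps-1 (-0.25 ± 0.04) and meg-4 (-0.20 ± 0.04) were lower as well. Again 0 of 10 were called by either tool, against 13.7% of all tested genes. In edgeR 9 members had an unadjusted p under 0.05, as did 9129 of 14413 tested genes. pgl-1 and pgl-3, the scaffold genes, were both at -0.08 with adjusted p-values of 0.215 and 0.0623.

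The age effect at 25°C was also compared between genotypes. In npr-8 animals edgeR and DESeq2 called 0 of 10 between old and young, where 33.8% of all tested genes were called. In edgeR 3 members had an unadjusted p under 0.05, against 11240 of 14733 tested genes. Without the library numbered 0, 6 members had an adjusted p under 0.05 (glh-2 at 0.48, meg-4 at 0.40, glh-4 at 0.38, deps-1 at 0.24, meg-2 at 0.22 and glh-1 at -0.14), all under the fold limit. Over all genes 5121 were called without it, and how many had an adjusted p under 0.05 was not counted. With it, glh-1 was at 0.06 ± 0.19 in npr-8, against -0.65 in wild type. The interaction of genotype and age at 25°C was 0.73 ± 0.21 for glh-1 (adjusted p = 0.00700), 0.78 ± 0.18 for glh-2, 0.82 ± 0.13 for glh-4 (adjusted p = 1.99e-05), 0.44 ± 0.13 for pgl-3, 0.44 ± 0.16 for meg-4 and -0.10 ± 0.21 for meg-1. It was called for 0 of 10 by either tool, against 20.6% of all tested genes. In edgeR 5 members had an unadjusted p under 0.05, as did 8922 of 15087 tested genes. Without the library numbered 0 the values of these genes, in the same order, were 0.55, 0.63, 0.73, 0.33, 0.30 and -0.28, with 8 of 10 members at an adjusted p under 0.05 and none past the fold limit. Over all genes 3165 were called in that fit, and how many had an adjusted p under 0.05 was not counted. The sign of the age effect on glh-1 in npr-8 turned with that library (adjusted p = 0.0146 without it), and that of its interaction did not.

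In young npr-8 animals the meg genes were higher at 25°C too, by less than in wild type. They were all called higher at 25°C than at 20°C, 4 of 10 against 12.8% of all tested genes, at 3.48 ± 0.33 (meg-2), 3.26 ± 0.25 (meg-4), 3.11 ± 0.25 (meg-1) and 2.93 ± 0.20 (meg-3). deps-1 was at 0.92 ± 0.23 (adjusted p = 0.00318), and at 1.13 and called without the library numbered 0. Without that library the meg genes were at 3.68 (meg-2), 3.39 (meg-4), 3.28 (meg-1) and 3.07 (meg-3). glh-1 was at -0.29 ± 0.20 (adjusted p = 0.207), and at -0.11 without it (adjusted p = 0.0332). The test of the difference from wild type is the interaction of genotype and temperature given above.

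The meg genes did not move alone. Of 11 oocyte and eggshell genes, such as the yolk receptor gene rme-2 and the RNA regulator gene puf-5, all 11 rose in young wild type at 25°C (median 4.01 on the log2 scale) and all 11 in old wild type at 20°C (median 3.88). The largest rises at 25°C were those of puf-5 (4.94) and cbd-1 (4.52), the chitin-binding protein of the eggshell. Their summed level was 655 to 875 CPM in young wild type at 20°C, 1207 to 2068 in young npr-8 at 20°C and 3822 or more in every library of the other 5 groups with gene counts. In young npr-8 against wild type at 20°C, 10 of 11 were called higher, with a median of 1.17. Of 16 maternal regulators and granule factors of the early embryo, 13 rose in young wild type at 25°C and 14 in old wild type at 20°C, and 4 of 15 tested in young npr-8 at 20°C, led by oma-2 (1.57), a gene of oocyte maturation, and nos-2 (1.40), a gene of primordial germ cells. sepa-1, which encodes a receptor for the removal of P granule proteins by autophagy in somatic cells of the embryo, had 1 fragment over the 5 libraries of young wild type grown at 20°C and 2989 over those grown at 25°C. The scaled ratio was 3560, with an exact Clopper-Pearson 95% interval of 638 to 141000, which covers counting error only. In young wild type par-1 (0.01) and pptr-1 (0.08), which encode a polarity kinase and a phosphatase subunit of granule partitioning, were at the bottom of the list.

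Other germ granule proteins of the adult germline behaved more like the pgl and glh genes. Of the 18 listed, 14 were found, and 7 were called higher in young wild type at 25°C (median 1.01) and 6 in old wild type at 20°C (median 0.87), with cgh-1 (1.93 and 1.59), a DEAD-box helicase gene, at the top in both. Between genotypes their medians were 0.02 and -0.45 in young animals at 20°C and 25°C and 0.23 and 0.10 in old ones. The 10 genes of the mitotic and meiotic germline had medians of 0.83 and 1.05, with glp-1, the Notch receptor of germline stem cells, at 1.90 and 2.10. These medians stand beside -0.14 and -0.16 over all tested genes.

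Markers of other tissues and stages moved in the same comparisons. All 14 sperm genes found were called lower in young wild type at 25°C (median -3.93) and in old wild type at 20°C (median -5.77), and their sum fell from 481 to 545 CPM in young wild type at 20°C to 29.9 to 45.6 at 25°C. Of 10 molting and cuticle genes, 8 were lower at 25°C, led by bli-2 (-8.95) and mlt-8 (-7.07), and 1 was higher. Of 9 zygotic embryonic genes tested, 6 were higher and 1, elt-7 (-1.25), lower. Only 4 zygotic genes passed the filter between the young groups at 20°C. The others were tested through their level at 25°C, so the filter largely set their direction. The sum of the 10 genes found was 54.9 to 63.2 CPM in young wild type and 54.5 to 67.8 in young npr-8 at 20°C against 110.5 or more elsewhere. ceh-51, a homeobox gene of early mesoderm, had 3 fragments in young wild type grown at 20°C and 221 in that grown at 25°C, which gives a scaled ratio of 87.7 with an exact interval of 29.6 to 428. Of 10 body wall muscle genes, 9 were lower at 25°C (median -1.33), and with age all 10 at 20°C (median -3.84) and at 25°C (median -2.46). Of 7 intestine genes, 3 were lower and 1 higher at 25°C, and 6 were lower and 1 higher with age at 20°C (median -2.37). Over all tested genes, 5196 of 14915 were called lower in young wild type at 25°C. With age 5620 of 15323 were called lower at 20°C and 2134 of 13848 at 25°C. The intestine count for growth at 25°C in young wild type was near the share over all genes. With age at 25°C 6 of 7 intestine genes were lower (median -1.90). The part of any of these lists in the meg result was not tested. Each muscle and intestine marker found had fragments in all 7 groups with gene counts, and 1 zygotic gene, tbx-35, was at 0 in young npr-8 at 20°C.

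**Figure D4:**
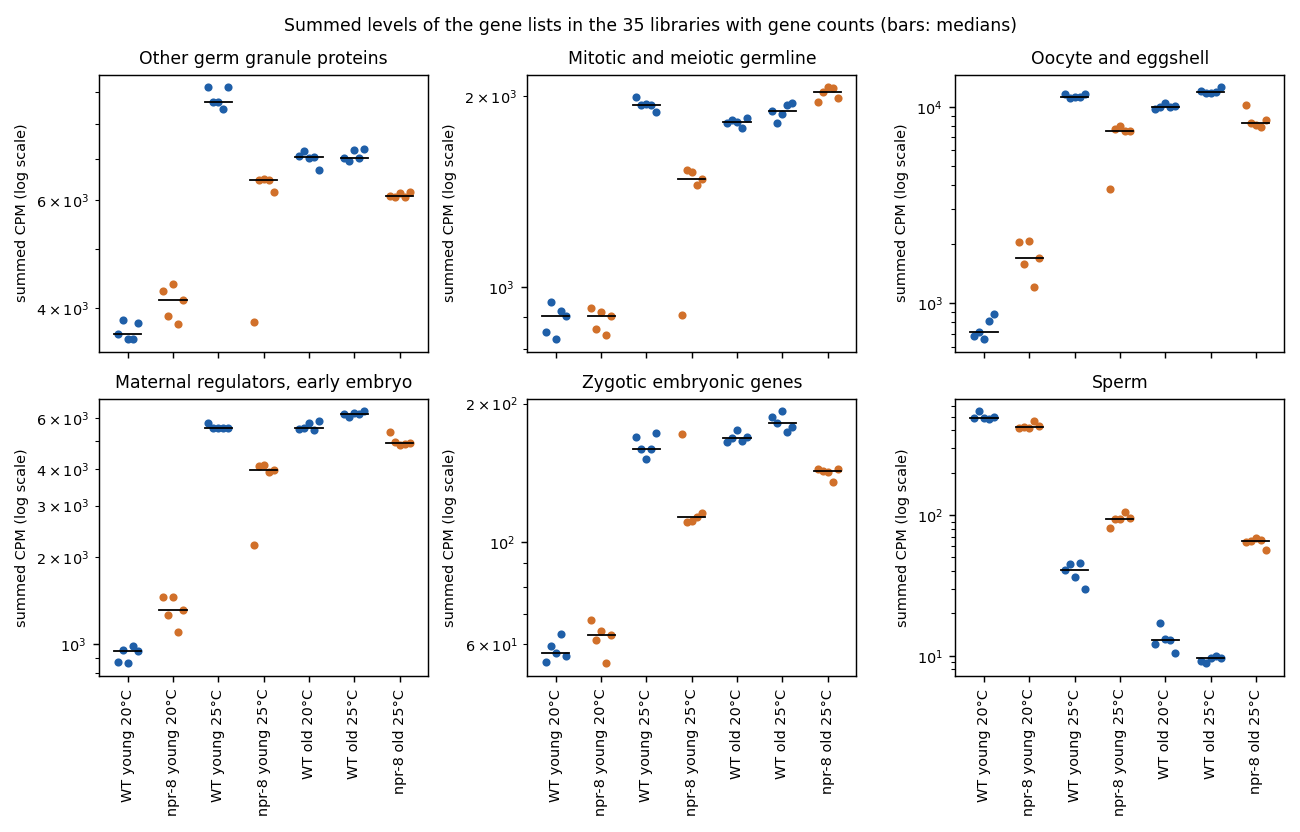
Summed CPM (log axis) of 6 gene lists in each of the 35 libraries with gene counts, blue for wild type and orange for npr-8, with group medians as bars. The oocyte and eggshell sum lay at 655 to 2068 CPM in young animals at 20°C and at 3822 or more elsewhere, the sperm sum went the other way, and the other germ granule proteins spanned 3558 to 9176 CPM.

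The genes whose group means tracked the meg pattern most closely, by Pearson's correlation of mean log2(CPM + 1) over the 7 groups with gene counts among 13523 genes, were F18A1.7 (0.9998), W02F12.3 (0.9992), ZC308.4 (0.9991), gln-5 (0.999), a glutamine synthetase gene, and szy-4 (0.9987). F18A1.7 had 21.2 ± 2.02 CPM in young wild type and 52.3 ± 10.1 in young npr-8 at 20°C, and 432 ± 32.9 in old wild type at 25°C. The mean of the pgl and glh genes was tracked less tightly, by clh-5 (0.9912), a chloride channel gene, lst-6 (0.9885), vbh-1 (0.9877), a Vasa- and Belle-like helicase gene, and C34B4.2 (0.9846). That mean joins unlike genes. Over the 35 libraries with gene counts pgl-3 and glh-2 correlated at 0.94, but glh-1 with them at -0.0939 and -0.212. The meg genes correlated with each other at 0.99 to 0.998. Over 7 points that share libraries these are descriptions of likeness.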

How the data were processed

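The members and gene lists were chosen with earlier results of these data known. The authors aligned reads to ce10 (HISAT2 in the methods, Bowtie2 2.3.4 in the submitters' processing notes) and ran Cuffquant and Cuffdiff (Cufflinks 2.2.1) on the pairs of groups compared. The deposited estimated counts (fragments per gene and library, not scaled) were rounded to whole numbers, and 99.93% of gene values were already whole. FPKM were scaled by the authors within each table and used between genes and in limma alternatives. The authors' fold changes and p-values were not used, nor were 12 columns of scaled fragments. In old animals at 20°C, transcript values were added up to 13039 of 13793 genes (94.5%) with a mean of at least 10 wild-type fragments, 10778 matched by accession and the rest by fragments within 1 fragment or 1%, with 8 dropped where FPKM departed by over 2%. Genes without wild-type fragments are thus absent from that comparison. A total of 113 genes marked as failed or too deep were left out.

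Comparisons used the 5 libraries of each group in edgeR 4.0.16 (R 4.3.3): filterByExpr (minimum count 10, total 15), TMM, robust quasi-likelihood fits, two-sided, with Benjamini-Hochberg adjustment over all genes tested. Called genes had an adjusted p below 0.05 and moved by 1 or more on the log2 scale. SE is the absolute log2 fold change over the square root of F, and 95% intervals are 1.96 SE. Interactions used 20 libraries. The code was tested on simulated data. All 10 members were named, as were the 2 largest rises and falls of a list where shown and the 5 genes most like each pattern among those with a mean of at least 1 CPM, of which 1 is not reported here. Low-count ratios were also scaled by library size. Alternatives were DESeq2 1.42.0, RLE factors, library size alone, no filter, 1 fit over 35 libraries, limma 3.58.1 on log2(FPKM + 1) and log2(FPKM + 0.1), and leaving out each library.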

Additional observations from a re-analysis of the deposited data

Results flagged for a closer look

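In groups of 5 libraries, 15 of 80 combinations of gene and group had an end library whose gap to the next was over 0.71 of the group's range (Dixon's test, which chance meets in about 1 of 20 groups). Of these, 10 are the library numbered 0 of young npr-8 animals at 25°C, low for all 10 genes: pgl-1 at 445.5 CPM, pgl-3 at 159, glh-1 at 328, glh-2 at 143, glh-4 at 202, deps-1 at 68.5, meg-1 at 71.5, meg-2 at 14.1, meg-3 at 54.1 and meg-4 at 27.1. The other 5 were glh-1 at 862 CPM in library 3 of young wild type at 20°C, which lay below 1008 to 1055 in the rest, meg-3 at 127 in library 0 of young wild type at 25°C, meg-1 at 179 and meg-3 at 130.1 in library 0 of old npr-8 at 25°C, and meg-1 at 186 in library 0 of old npr-8 at 20°C.

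Effects that differed between groups by a test of the difference (edgeR's interaction term) were the age effect in wild type at 25°C less that at 20°C, on the log2 scale -6.01 for meg-1, -5.98 for meg-2, -5.75 for meg-4, -5.21 for meg-3, -1.73 for glh-2, -1.52 for deps-1 and -1.34 for pgl-3. The effect of npr-8 in young animals at 25°C less that at 20°C was -3.20 for meg-1, -2.73 for meg-2, -2.64 for meg-4, -2.41 for meg-3 and -1.13 for glh-2, and the glh-2 value fell within the fold limit without the low library (-0.99).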

How the results depend on the processing

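Counts of members called stayed within 1.5 times in all 160 fits without 1 library and in 68 of 71 other fits. The exceptions were FPKM fits with limma: 4 members, in place of 7, were called in young wild type at 25°C with a pseudocount of 1 and also 4 with 0.1, where the FPKM of 1 library departs from its fragments, and 2 in place of 4 in young npr-8 at 20°C with 1. Some signs turned. glh-1 at 25°C in young wild type was -0.062 by library size alone, -0.48 with FPKM and a pseudocount of 1 and -0.49 with 0.1. By library size alone the age effect on glh-2 in wild type at 25°C was 0.11, deps-1 in old npr-8 at 20°C -0.014, pgl-1 and pgl-3 in old npr-8 at 25°C 0.0042 and 0.0022, and the age by temperature term of glh-1 0.10. pgl-1 with age in npr-8 at 25°C was -0.041 with no filter. Without 1 library the ranges were -0.039 to 0.012 (pgl-1) and -0.060 to 0.048 (deps-1) in young npr-8 at 20°C, -0.0091 to 0.045 (deps-1) and -0.053 to 0.00099 (meg-1) in old npr-8 at 20°C, -0.11 to 0.053 (pgl-1), -0.029 to 0.13 (pgl-3), -0.14 to 0.11 (glh-1) and -0.12 to 0.155 (meg-1) for age in npr-8 at 25°C, -0.080 to 0.00014 for the glh-1 term of age and temperature, and -0.0096 to 0.29 for the meg-2 term of genotype and age. The causes were not tested. Library size alone moved the share of higher among all calls from 37.1% to 48.0% for age in wild type at 25°C and from 30.7% to 42.2% in npr-8, and limma on FPKM moved it from 3187 of 8383 calls to 22.3% and 20.8% in young wild type at 25°C. Counts over all genes moved by over 1.5 times with no filter in old wild type (850 to 1340 between temperatures), and with limma in young npr-8 at 25°C (2411 to 162 and 135) and old npr-8 at 25°C (1974 to 1218). Library size alone moved the median of all genes from -0.14 to -0.31 in young wild type at 25°C. No paired analysis was possible because the tables number libraries 0 to 4 and nothing ties these to the numbers in the labels. The meg genes had 16 to 111 fragments a library in young wild type at 20°C, which limits the precision of their fold changes there.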

Other observations

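Deposited transcripts of the old animals at 20°C split 3 members. pgl-1 had means of 13734 and 5687 fragments for its transcripts in wild type and 13046 and 9717 in npr-8. pgl-3 had 6940 and 393 in wild type and 7969 and 322 in npr-8, and deps-1 had 7657 and 291 in wild type and 7941 and 340 in npr-8. These splits are estimates by the authors' Cuffdiff run and were not tested.

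Within the 4 meg genes the composition of their summed CPM was not the same in the lowest group. meg-1 made up 31.1% to 37.02% of the sum in young wild type at 20°C and 39.6% to 48.7% in all libraries of the other groups, and meg-3 made up 37.8% to 46.4% there against 26.5% to 36.5% elsewhere. In old animals of both genotypes, the sperm genes were the list that set npr-8 furthest from wild type: at 25°C 11 of 11 tested genes were called higher in npr-8 (median 2.997 on the log2 scale), and at 20°C 7 of 7 (median 3.02), led by gsp-4 (4.42) and gsp-3 (4.30), sperm phosphatase genes. Over all tested genes, 1471 of 14413 were called higher in npr-8 at 25°C and 787 of 12857 at 20°C. Sperm genes were not among those chosen for P granules, and their part in the member values was not tested.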
